A study of Mus musculus with 28 samples.

Results

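The genes described here carry the cyclic AMP (cAMP) signal inside cells of the mouse amygdala, and they were measured by RNA sequencing (RNA-seq) after acute or chronic alcohol drinking. They are 10 genes picked by symbol: the phosphodiesterases *Pde4a*, *Pde4b* and *Pde4d*, the protein kinase A (PKA) subunits *Prkaca*, *Prkacb* and *Prkar2b*, the transcription factors *Creb1* and *Crem*, and the A-kinase anchoring proteins *Akap5* and *Akap12*. All 10 were among the 49477 genes listed for both batches of mice, and all 10 were among the 16266 genes that entered the tests, for which 10 counts per mouse on average were required. Every animal was a female C57BL/6J mouse, 7 weeks old when purchased, housed with 2 drinking bottles, and the tissue was a punch of 1 mm that held the central and the basolateral amygdala. The Chronic group (9 mice) could choose between 20% alcohol and water for 24 h on alternate days over 28 days, the Acute group (9 mice) had alcohol on day 28 only, and the Water group (10 mice) had water throughout. Tissue was taken on day 29, with 1 library per mouse. The mice came in 2 batches. In the first, 4 mice had Water, 4 were Acute and 3 were Chronic; in the second these numbers were 6, 5 and 6.

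Receptors coupled to stimulatory G proteins switch on adenylyl cyclases, which make cAMP. Binding of cAMP to the regulatory subunits of PKA frees the catalytic subunits, which phosphorylate ion channels, receptors and the transcription factor CREB, and phosphodiesterases end the signal by breaking cAMP down. Anchoring proteins hold PKA beside its substrates, at synapses among other places. In the amygdala this pathway is widely studied for its part in anxiety and alcohol drinking.

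Each mouse gave 20004380 to 22569562 counts. Levels are given as CPM, counts scaled to a common library size after TMM normalization (a factor per mouse from 0.979 to 1.04), and differences between groups are log2 fold changes with their standard error (SE) from 1 edgeR fit over all 28 mice with batch as a term. A gene was called when its p, adjusted over all 16266 genes, was under 0.05. The batches differed widely, with 46.2% of genes called between them. All 10 neuron markers passed the count filter, as did all 6 markers of the central amygdala and all 8 of pallial excitatory neurons, the cell class of the basolateral nucleus. All 7 striatal markers, some of which central amygdala neurons also express, were detected in every mouse with a summed level of 321 to 1248 CPM, and the summed level of 8 choroid plexus and ependyma markers ran from 18.03 to 4323 CPM. In punches of mixed tissue, fewer cells of a type and less RNA per cell cannot be told apart.

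The cAMP response element is the DNA motif that CREB and CREM bind, and its full and short forms were looked for near the starts of these genes. RefSeq promoter windows, which reach from 250 bases before to 50 bases after a start, were found for 8 of the 10 genes (17 windows, build GRCm38.p6), and they were searched on both strands for the full element TGACGTCA and its short form TGACG, which reads CGTCA from the other strand and is also a piece of the full element. *Crem* and *Akap12* had no window, so they were not searched. No window of the other 8 genes held the full element, which stands in 1.79% of all 32851 windows. The short form stood in 4 of the 17 windows, against 20.8% of all windows. By gene it stood in 4 of 8, against 23% of all 27025 genes, but the 8 genes have more windows each than genes in general (17 for 8 beside 32851 for 27025), and neither share was tested. The matches are shown because these are the letters that CREB would read at genes of its own pathway. They are a description of sequence and not evidence of binding. Each line below gives 150 bases before a start, 5′ to 3′ on the gene's strand, with the match in capitals.
Prkacb, chr3:146812947-146813096, minus strand, match 102 bases before the start: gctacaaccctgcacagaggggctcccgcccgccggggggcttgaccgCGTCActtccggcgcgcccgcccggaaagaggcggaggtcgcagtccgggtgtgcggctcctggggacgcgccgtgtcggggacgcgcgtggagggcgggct
Pde4b, chr4:102421405-102421554, plus strand, match 34 bases before the start: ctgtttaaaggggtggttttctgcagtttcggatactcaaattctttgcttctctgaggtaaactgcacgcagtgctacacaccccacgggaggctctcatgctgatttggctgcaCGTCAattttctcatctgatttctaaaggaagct
Prkaca, chr8:83972828-83972977, plus strand, matches 120 and 6 bases before the start: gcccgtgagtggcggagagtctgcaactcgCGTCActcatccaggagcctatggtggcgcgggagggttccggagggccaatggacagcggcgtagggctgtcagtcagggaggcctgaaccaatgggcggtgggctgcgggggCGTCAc
Pde4a, a second start, chr9:21183951-21184100, plus strand, match 50 bases before the start: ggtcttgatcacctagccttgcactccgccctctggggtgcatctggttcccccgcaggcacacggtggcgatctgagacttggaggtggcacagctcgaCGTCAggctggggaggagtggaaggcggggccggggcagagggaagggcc

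Per kilobase of exon, the catalytic subunits were the most abundant of the 10 genes and *Crem* was the least. *Prkacb* stood at 99.3 ± 4.82 CPM per kilobase (SD, n = 28 mice) and *Prkaca* at 84.8 ± 4.79, and their ranges over mice overlapped. *Prkar2b*, the regulatory subunit that neurons use most widely for anchored PKA, stood at 25.8 ± 1.68, below every value of *Prkaca*. Next came *Pde4a* at 17.8 ± 1.82 and *Akap5* at 16.1 ± 1.68. In this stretch of the order neighbours overlapped, *Prkar2b* with *Pde4a* and *Pde4a* with *Akap5*. *Pde4b* followed at 9.99 ± 0.754 CPM per kilobase, apart from both its neighbours. *Creb1* at 4.14 ± 0.305, *Akap12* at 3.70 ± 0.372 and *Pde4d* at 2.72 ± 0.221 formed a chain in which each overlapped the next. *Crem* at 1.41 ± 0.149 overlapped none. Among all genes tested, *Prkacb* lay at percentile 98.0 and *Crem* at percentile 28.3, and *Crem* rested on 131 to 233 counts per mouse.

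None of the 10 genes was called between groups. In Acute against Water, 0 of 10 were called and 1 of 10 had an unadjusted p under 0.05 (1 higher, 0 lower). Over all genes 0% were called in that comparison, and 5.07% were higher and 4.45% lower at an unadjusted p under 0.05. In Chronic against Water, 0 of 10 were called where 0.0184% of all genes were, and 4 of 10 had an unadjusted p under 0.05, with 1 higher (all genes, 4.81%) and 3 lower (all genes, 5.65%). In Chronic against Acute, 0 of 10 were called where 0% of all genes were, and 2 of 10 were lower at an unadjusted p under 0.05 and 0 higher (all genes, 2.5% lower and 1.95% higher). DESeq2, ComBat-seq followed by DESeq2, and limma-voom also called 0 of the 10 genes in each comparison, and each gave unadjusted p under 0.05 to 1, 4 and 2 of them in the same order of comparisons. In Chronic against Water neither DESeq2 fit gave *Crem* an adjusted p, and in Acute against Water the fit with a batch term gave it none. The median log2 fold change of the 10 genes was 0.02 in Acute against Water, -0.04 in Chronic against Water and -0.04 in Chronic against Acute, beside medians over all genes within 0.0022 of 0. The comparisons share groups, so their values are set side by side and not counted as separate evidence. The 10 genes were chosen with earlier results of these data known, so their counts beside the shares of all genes are a description.

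**Figure D1:**
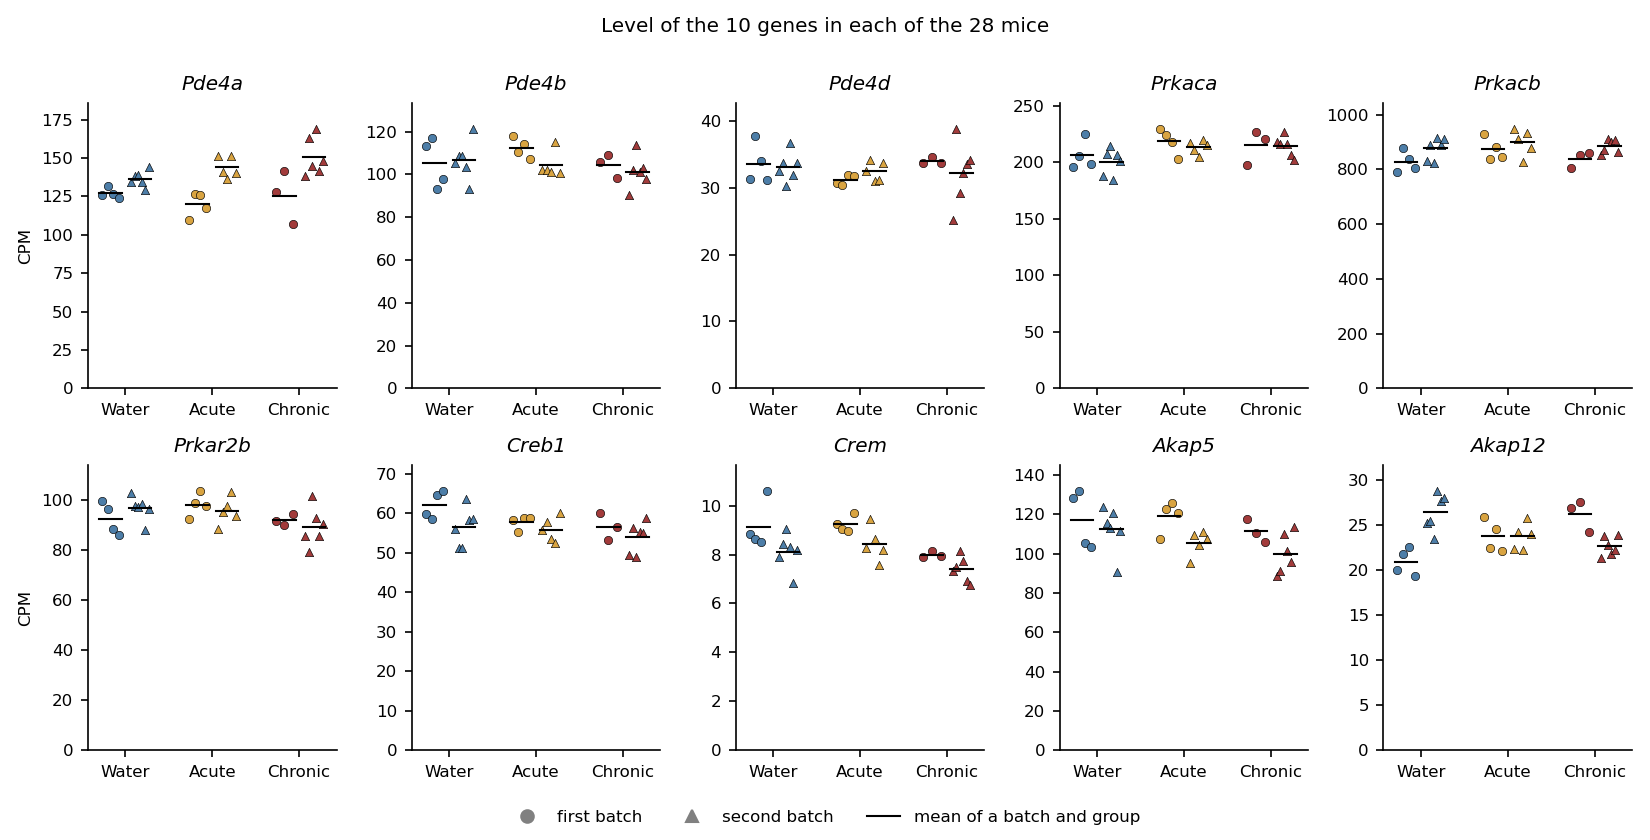
Level of each of the 10 genes in each mouse, in CPM on a linear axis that differs between panels, by group; circles are mice of the first batch, triangles those of the second, and bars the mean of a group within a batch. With both batches pooled, the groups of every gene overlap.

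**Figure D2:**
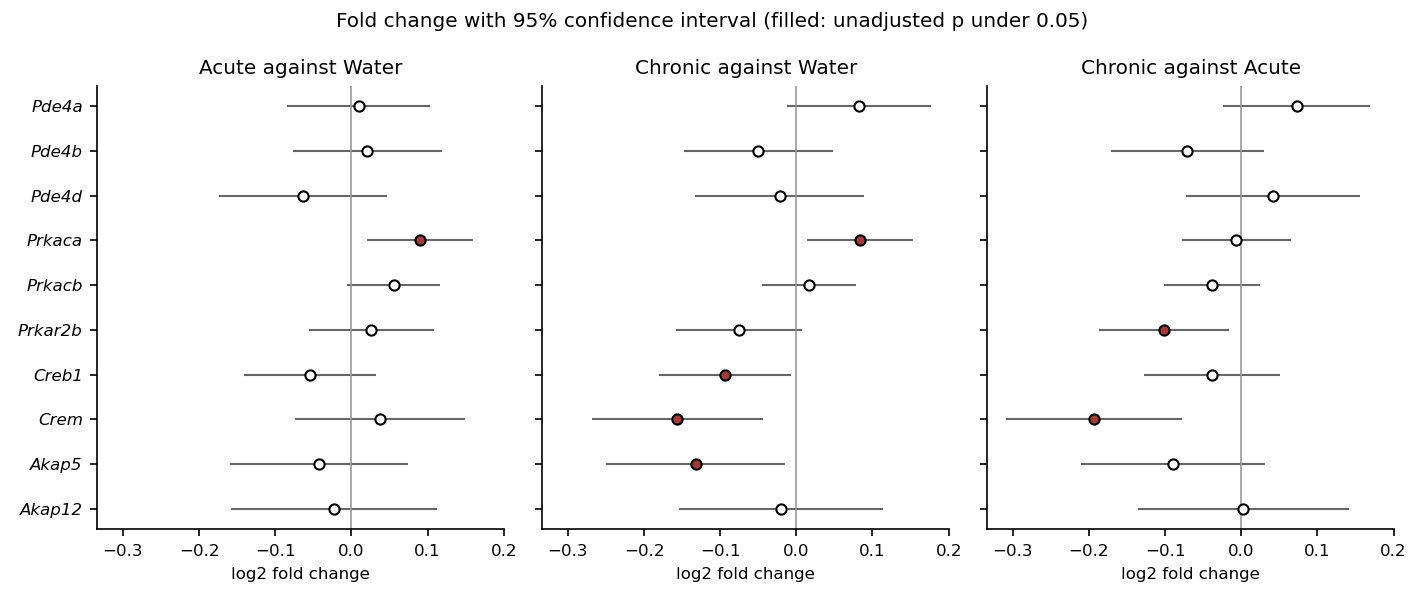
Log2 fold change of each of the 10 genes in the 3 comparisons, with 95% confidence intervals from the edgeR fit; filled points have an unadjusted p under 0.05. *Crem* sits lowest in both comparisons of the Chronic group, and no gene passes the adjusted threshold.

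The phosphodiesterases of the PDE4 family, which break down cAMP and are the targets of rolipram, differed little between groups. *Pde4a* (chr9:21165714-21213248, plus strand, GRCm38 with GENCODE M21, as for all genes here) ran from 124 to 144 CPM in Water mice with a median of 133, from 110 to 152 in Acute mice with a median of 137, and from 107 to 169 in Chronic mice with a median of 142. The Chronic mice spread more widely than the Water mice on both sides. Its log2 fold change was 0.01 (SE 0.046) in Acute against Water and 0.08 (SE 0.046) in Chronic against Water, where 8 of 9 mice lay above the Water mean of their batch (edgeR unadjusted p = 0.0836, adjusted p = 0.541). The second batch carried the Chronic difference: within it the Water mice ran from 129 to 144 CPM and the Chronic mice from 138 to 169, a log2 fold change of 0.15 (SE 0.048, exact permutation p = 0.0152), while the first batch gave -0.02 (SE 0.085, exact permutation p = 0.80). The difference between the batches was not called (0.17, SE 0.092, adjusted p = 0.849).

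*Pde4b* (chr4:102087543-102607259, plus strand), a PDE4 form also prominent in glia and immune cells, had medians of 107, 107 and 102 CPM in Water, Acute and Chronic mice, inside ranges of 93.0 to 121, 101 to 118 and 90.3 to 114. *Pde4d* (chr13:108449948-109953461, plus strand), the longest of the 10 genes, had medians of 33.1, 31.7 and 33.7 CPM inside ranges of 30.3 to 37.8, 30.4 to 34.1 and 25.2 to 38.8. The groups overlapped almost wholly in both genes. The 95% confidence interval of the log2 fold change in Chronic against Water was -0.15 to 0.05 for *Pde4b* and -0.13 to 0.09 for *Pde4d*. Small RNAs and a pseudogene are annotated inside *Pde4d*, and their reads and its own cannot be told apart where they share sequence.

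Of the PKA subunits, *Prkaca* (chr8:83972993-83996443, plus strand), which encodes the catalytic subunit alpha, had a higher median in both alcohol groups than in Water mice, and was not called. It ran from 184 to 225 CPM in Water mice with a median of 204, from 203 to 230 in Acute mice with a median of 218, and from 197 to 227 in Chronic mice with a median of 216. The groups overlapped, but 8 of 9 Acute mice and 8 of 9 Chronic mice lay above the Water mean of their batch. The log2 fold change was 0.09 (SE 0.034) in Acute against Water, which is 6.45% (edgeR unadjusted p = 0.0124, adjusted p = 0.462; exact permutation p = 0.0172). It was 0.08 (SE 0.034) in Chronic against Water, which is 5.99% (unadjusted p = 0.0194, adjusted p = 0.367; exact permutation p = 0.0387). Both batches gave a positive value in Chronic against Water, 0.06 (SE 0.064) in the first and 0.10 (SE 0.041) in the second. With each mouse's trend on GC content and gene length taken into the fit, Chronic against Water gave 0.04 (unadjusted p = 0.188).

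*Prkacb* (chr3:146729574-146812990, minus strand), the catalytic subunit beta, had medians of 858, 883 and 865 CPM in Water, Acute and Chronic mice. Its log2 fold change was 0.06 (SE 0.030) in Acute against Water, with 8 of 9 Acute mice above the Water mean (edgeR unadjusted p = 0.0757, adjusted p = 0.575), and 0.02 (SE 0.030) in Chronic against Water. With the trend on GC content and gene length in the fit, the Acute value of *Prkacb* was larger and had an unadjusted p under 0.05, as given below. A pseudogene, Gm19104, lies on the opposite strand within *Prkacb*. The score of 6 central amygdala markers, all past the filter and with a summed level of 340 to 435 CPM in Water, 381 to 473 in Acute and 339 to 452 in Chronic mice, had r = 0.75 with *Prkacb* and 0.50 with *Prkaca* over the 28 mice. Its group means were -0.11 for Water, 0.13 for Acute and -0.0089 for Chronic (log2 scale, batch means removed), and the Acute mean exceeded the Water mean by 0.38 in the first batch and by 0.14 in the second. The markers were *Prkcd*, *Crh*, *Nts*, *Sst*, *Tac2* and *Dlk1*. Of these, *Crh* and *Sst* are also counted among the CREB target genes below, and the paper reports *Nts* as higher in Acute mice. The part of this score in the values of *Prkaca* and *Prkacb* was not tested.

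*Prkar2b* (chr12:31958476-32061296, minus strand), the regulatory subunit type II beta, ran from 86.0 to 103 CPM in Water mice with a median of 96.8, from 88.6 to 104 in Acute mice with a median of 97.6, and from 79.2 to 102 in Chronic mice with a median of 90.5. The 3 lowest of the 28 mice, from 79.2 to 85.8 CPM, were all Chronic mice of the second batch, and the ranges overlapped. Its log2 fold change was -0.08 (SE 0.040) in Chronic against Water (edgeR unadjusted p = 0.0716, adjusted p = 0.518) and -0.10 (SE 0.042) in Chronic against Acute (unadjusted p = 0.0206, adjusted p = 0.998; exact permutation p = 0.0247). Of the 9 Chronic mice, 7 lay below the Water mean of their batch and 8 below the Acute mean.

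*Crem* (chromosome 18, minus strand), the cAMP-responsive modulator, whose locus yields both activators and the inducible repressor ICER, had the smallest p of the list in Chronic against Acute. In the first batch the Water mice stood at 8.51, 8.62, 8.82 and 10.6 CPM, the Acute mice at 8.96, 9.05, 9.24 and 9.70, and the Chronic mice at 7.91, 7.93 and 8.14. In the second batch the Water mice ran from 6.85 to 9.02 CPM with a median of 8.23, the Chronic mice from 6.75 to 8.13 with a median of 7.40, and the Acute mice stood at 7.55, 8.20, 8.27, 8.62 and 9.44. The Chronic mice of the first batch lay below every Water and every Acute mouse of that batch, and the groups overlapped in the second.

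The log2 fold change of *Crem* in Chronic against Acute was -0.19 (SE 0.056), a change of -12.6%, and 9 of 9 Chronic mice lay below the Acute mean of their batch. It ranked 9 of 16266 genes by p, yet its adjusted p was 0.998 (edgeR unadjusted p = 0.00181; exact permutation p = 0.00068, where the smallest possible is 6.18e-05). The value was -0.21 (exact permutation p = 0.0286, the smallest that 35 regroupings allow) in the first batch and -0.19 (exact permutation p = 0.0195) in the second. Against Water it was -0.16 (SE 0.055, edgeR unadjusted p = 0.00822, adjusted p = 0.290; exact permutation p = 0.0103), with 8 of 9 Chronic mice lower. Acute mice differed little from Water mice, by 0.04 (SE 0.054). *Crem* overlaps an antisense transcript, Gm6225, and the library strandedness is not given in the sources used here. The reads of both cannot be told apart where they share sequence.

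*Creb1* (chr1:64532645-64604548, plus strand), the transcription factor CREB itself, which PKA activates by phosphorylation and not by a change in its RNA, ran from 51.2 to 65.7 CPM in Water mice with a median of 58.7, from 52.4 to 60.2 in Acute mice with a median of 57.8, and from 48.9 to 60.1 in Chronic mice with a median of 55.3. The 2 lowest mice of the 28, at 48.9 and 49.4 CPM, were Chronic mice of the second batch. The log2 fold change was -0.09 (SE 0.042) in Chronic against Water, with 8 of 9 mice lower (edgeR unadjusted p = 0.0360, adjusted p = 0.436), and the exact permutation test gave p = 0.0720. In Acute against Water it was -0.05 (SE 0.042). With the trend on GC content and gene length in the fit these became -0.02 (unadjusted p = 0.681) and 0.015.

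*Akap5* (chr12:76324891-76334153, plus strand) encodes AKAP79/150, which anchors PKA and calcineurin at the postsynaptic density. It ran from 90.4 to 132 CPM in Water mice with a median of 114, from 95.5 to 126 in Acute mice with a median of 109, and from 88.7 to 118 in Chronic mice with a median of 106. The groups overlapped over most of their range. The log2 fold change was -0.13 (SE 0.057) in Chronic against Water, with 7 of 9 mice lower (edgeR unadjusted p = 0.0283, adjusted p = 0.410; exact permutation p = 0.0805), and -0.04 (SE 0.057) in Acute against Water.

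*Akap12* (chr10:4266380-4359470, plus strand), which encodes gravin, an anchoring protein that binds PKA, protein kinase C and the beta-adrenergic receptor, moved in opposite directions in the 2 batches. It was singled out with that pattern already known, so its values are a description first. In the first batch the Water mice stood at 19.4, 20.0, 21.8 and 22.6 CPM, the Acute mice at 22.1, 22.4, 24.5 and 25.9, and the Chronic mice at 24.2, 26.8 and 27.5. Every Chronic mouse of the first batch lay above every Water mouse, with Acute mice between and overlapping both. In the second batch the Water mice ran from 23.5 to 28.8 CPM with a median of 26.5, the Chronic mice from 21.4 to 23.9 with a median of 22.5, and the Acute mice stood at 22.27, 22.33, 23.97, 24.24 and 25.8. There the order of Water and Chronic mice was turned round, and these groups overlapped by the lowest Water mouse alone, which lay below 2 of the Chronic mice. The Acute mice overlapped both.

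Chronic against Water, the log2 fold change of *Akap12* was 0.32 (SE 0.079) in the first batch (exact permutation p = 0.0286, the smallest that 35 regroupings allow) and -0.22 (SE 0.055) in the second (exact permutation p = 0.00649). The difference between the batches was -0.55 (SE 0.092) on the log2 scale (edgeR p = 2.86e-06, adjusted p = 0.0465), rank 1 of all genes and the only one called, 0.00615% of those tested. Of the 10 genes, 1 was called and 1 had an unadjusted p under 0.05 for that difference, which 6.15% of all genes had. Since *Akap12* was singled out with its batch pattern known, these tests, its rank and these counts restate the observation that chose it. The call sat at the edge of the threshold: it was lost in 22 of the 28 fits that each left out 1 mouse (adjusted p from 0.0126 to 0.452, the highest without Chronic mouse 38 of the first batch), while the difference itself stayed between -0.60 and -0.51. It was also lost with RLE size factors (adjusted p = 0.0503) and without the filter on low counts (adjusted p = 0.0577).

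Acute against Water gave *Akap12* 0.18 (SE 0.074) in the first batch (exact permutation p = 0.0857) and -0.16 (SE 0.057) in the second (exact permutation p = 0.0455). That difference of -0.34 (SE 0.090) ranked 4 of all genes by p but was not called (edgeR unadjusted p = 0.000908, adjusted p = 0.999); 0 of the 10 genes and 0% of all genes were called, and *Akap12* was the 1 gene of 10 with an unadjusted p under 0.05, against 4.13% of all genes. With both batches together the opposite values left -0.02 (SE 0.066) in Acute against Water and -0.02 (SE 0.066) in Chronic against Water. Water mice of the batches lay 20.9 ± 1.49 CPM (SD, n = 4) and 26.4 ± 2.02 (SD, n = 6), whereas the Acute mice had almost the same mean in both, 23.7 ± 1.82 (SD, n = 4) and 23.7 ± 1.47 (SD, n = 5). Beside *Akap12*, *Crem* was the other gene of the list whose Chronic and Water mice did not overlap in the first batch, 2 of 10 where 4.56% of all genes did not. *Akap12* was singled out with its batch pattern known, so neither this count nor the rank above is read as a result.

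**Figure D3:**
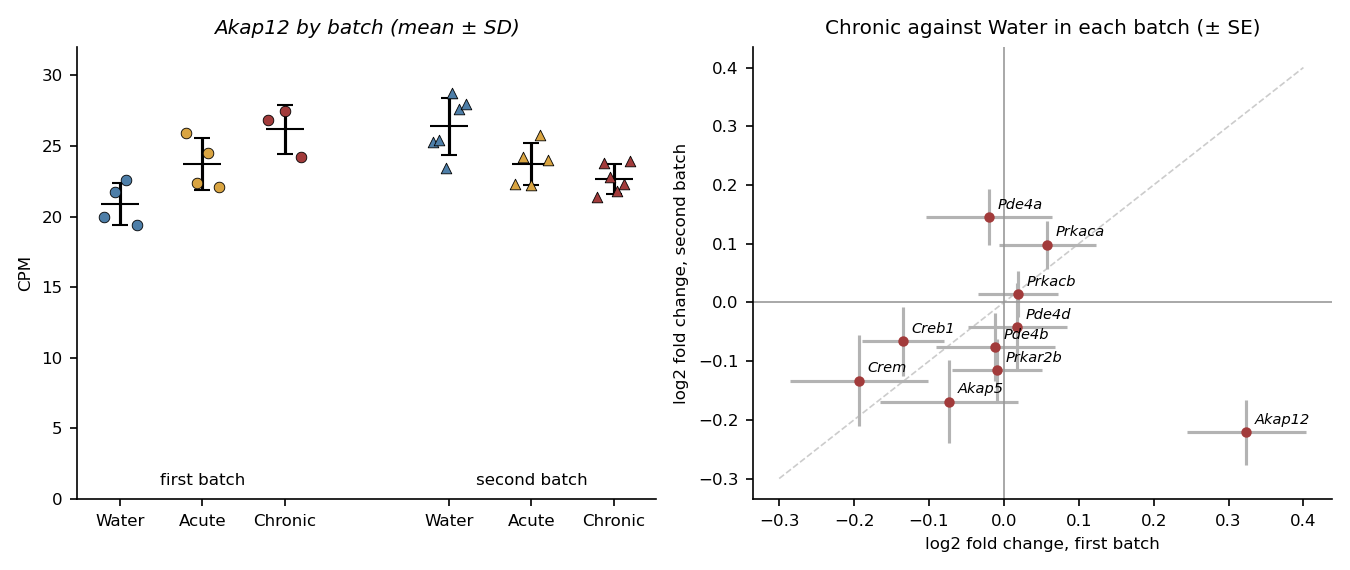
Left, level of *Akap12* in each mouse, in CPM, by group within each batch, with the mean and SD; right, log2 fold change in Chronic against Water of each of the 10 genes in the first batch (x axis) and the second (y axis), with SE and a dashed line of equal values. Chronic mice lie above Water mice in the first batch (26.2 ± 1.74 against 20.9 ± 1.49) and below them in the second (22.6 ± 1.03 against 26.4 ± 2.02), and *Akap12* stands alone at 0.32 and -0.22.

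Most marker lists turned sign between the batches in Chronic against Water as *Akap12* did, positive in the first and negative in the second. These were astrocytes, oligodendrocytes and their precursors, endothelial cells, mural cells, fibroblasts, choroid plexus and striatum. Neurons, central amygdala and microglia kept their sign. Pallial excitatory neurons turned the opposite way, by -0.11 and then 0.12. Both values were smaller than the SD of the Water mice (0.16 and then 0.15), so nothing is read from this turn. The differences of endothelial cells, mural cells, fibroblasts and choroid plexus were smaller than the SD of the Water mice in both batches, so nothing is read from their signs. Scores were means of log2 CPM over a marker list, with each batch's mean removed. The score of 6 markers of oligodendrocyte precursors, all of which passed the filter, was 0.09 higher in Chronic than in Water mice in the first batch and 0.07 lower in the second (score difference -0.07), and that of 10 astrocyte markers was 0.05 higher and then 0.05 lower (score difference -0.05). For oligodendrocytes, with 9 of 10 markers past the filter, the score difference was 0.33 and then -0.11. For the 8 microglia markers it was -0.03 in both batches. The precursor difference of the first batch was smaller than the SD of the Water mice there (0.13), and so was the astrocyte difference of the second (SD 0.060). The striatal score differed by 0.15 and then -0.52, within the Water SD of 1.11 in the first batch and just beyond that of 0.50 in the second. Summed over the list, the precursor markers ran from 245 to 300 CPM in Water mice, 271 to 310 in Acute mice and 252 to 299 in Chronic mice. Over the 28 mice *Akap12* had r = 0.71 with the precursor score, 0.54 with the oligodendrocyte score, 0.46 with the astrocyte score, -0.25 with the microglia score and -0.57 with the pallial neuron score, as a description in which a mouse's level and score come from 1 library. The part of these cells in the *Akap12* result was not tested.

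Across the batches themselves, 5 of the 10 genes were called for a level that differed, against 46.2% of all genes. *Pde4a* was 0.21 higher on the log2 scale in the second batch (adjusted p = 7.8e-05) and *Prkacb* 0.07 higher. *Creb1*, at -0.09, *Crem*, at -0.14, and *Akap5*, at -0.13, were lower there.

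The differences of the 10 genes in Chronic against Water followed the GC content of their exons. Over the 10 genes, Pearson's r between GC content and log2 fold change was 0.84 in Chronic against Water, 0.72 in Chronic against Acute and 0.27 in Acute against Water, as a description, since the same libraries stand behind each gene. *Pde4a* and *Prkaca*, with the highest GC content (57.2% and 54.9%), had the highest values in Chronic against Water, and *Creb1* (39.6%), *Crem* (43.2%) and *Akap5* (44.0%) had the lowest. The medians of all genes also climbed with GC content. Their median log2 fold change in Chronic against Water was -0.05 for the 2228 genes under 42% GC and 0.04 for the 4328 genes over 54%.

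When each mouse's trend on GC content and gene length was taken into the edgeR fit, the count of genes with an unadjusted p under 0.05 in Chronic against Water went from 4 to 0. *Prkaca* and *Creb1* are given above, and *Akap5* then stood at -0.09 (unadjusted p = 0.119) and *Crem* at -0.12 (unadjusted p = 0.0519). In Acute against Water *Prkaca* stood at 0.06 (unadjusted p = 0.0565) and *Prkacb* took its place below 0.05, at 0.09 (unadjusted p = 0.00936). In Chronic against Acute *Crem* stood at -0.18 (unadjusted p = 0.00637) and *Prkar2b* at -0.08 (unadjusted p = 0.0578). The batch difference of *Akap12*, whose exons hold 52.1% GC, was -0.51 with an adjusted p of 0.0409 in that fit.

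**Figure D4:**
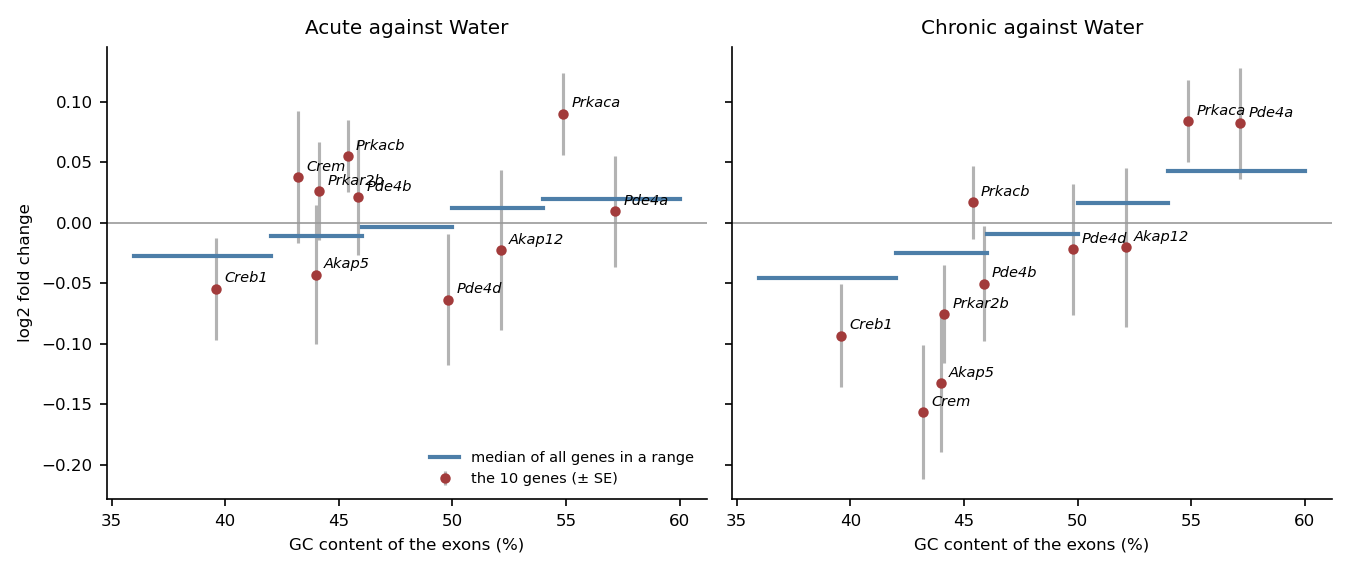
Log2 fold change in Acute (left) and Chronic (right) against Water (y axis) by the GC content of a gene's exons in percent (x axis), with a point and its SE for each of the 10 genes and a bar for the median of all genes in each of 5 ranges of GC content; the outer ranges hold all genes below or above their edge. In Chronic against Water the genes under 46% GC lie mostly below 0 and both genes over 54% lie above it, and the bars climb from -0.05 to 0.04.

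*Akap5*, *Prkar2b* and *Pde4b* went with the striatal markers, and in part with other lists, from mouse to mouse. With batch means removed, *Akap5* and *Prkar2b* had r = 0.82 over the 28 mice (0.80 and 0.83 within the batches), *Pde4b* and *Akap5* 0.61, and *Pde4b* and *Prkar2b* 0.60. Over all 45 pairs of the 10 genes the median was 0.06, with 4 pairs above 0.5 and 1 below -0.5, *Prkaca* with *Creb1* at -0.55. The score of 7 striatal markers (*Drd1*, *Drd2*, *Adora2a*, *Rgs9*, *Ppp1r1b*, *Pde10a* and *Rarb*) had r = 0.84 with *Akap5*, 0.84 with *Prkar2b*, 0.75 with *Pde4b* and 0.21 with *Akap12*. Other lists came near in part. *Pde4b* had r = 0.72 with the oligodendrocyte score, 0.58 with that of mural cells and 0.54 with that of endothelial cells, and the microglia score had r = 0.64 with *Prkar2b* and 0.54 with *Akap5*. Both values of a mouse come from 1 library of 1 depth, and these correlations carry no test.

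The striatal score had means of 0.05 in Water mice, 0.17 in Acute mice and -0.22 in Chronic mice, on the log2 scale with batch means removed, and the groups overlapped, with Water mice from -1.19 to 0.92. Summed over the 7 markers, none at 0 in any mouse, the level ran from 321 to 1248 CPM in Water mice, 435 to 1035 in Acute mice and 402 to 877 in Chronic mice. The pooled means cover opposite directions in the batches. Chronic minus Water was 0.15 in the first and -0.52 in the second, and Acute minus Water was 0.50 and then -0.14. The part of the score in the values of *Akap5*, *Prkar2b* and *Pde4b* was not tested.

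**Figure D5:**
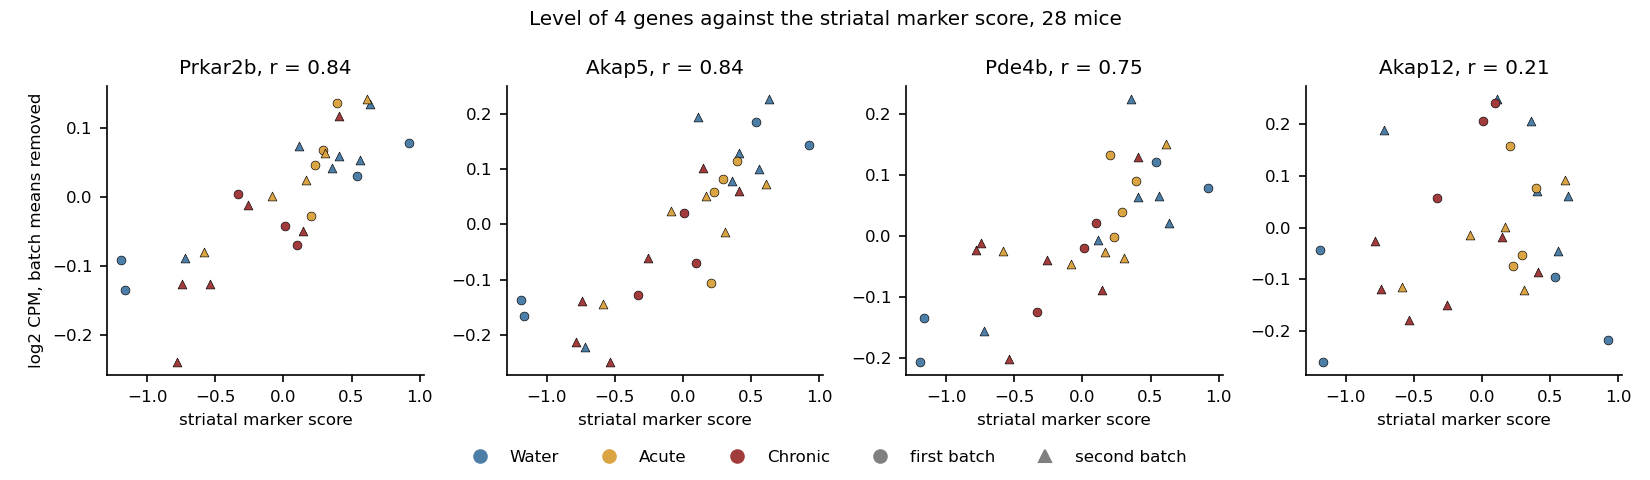
Level of *Prkar2b*, *Akap5*, *Pde4b* and *Akap12* in each mouse (log2 CPM with batch means removed, y axis) against the score of 7 striatal markers in the same mouse (x axis, mean of the markers on that scale), with color for the group and shape for the batch. The first 3 genes climb with the score (r = 0.84, 0.84 and 0.75) and *Akap12* does so weakly (r = 0.21).

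Ranked over all genes tested by Pearson's r of batch-centred levels over the 28 mice, the patterns most like *Akap12* were those of *Depp1* (0.76), *Carmil1* (0.76), *Ngfr* (0.73), *Pde11a* (0.73) and *Gja1* (0.72). *Gja1*, the astrocyte gap junction protein connexin 43, is also on the astrocyte list, and *Pde11a* is a phosphodiesterase that breaks down cAMP and cGMP. *Akap5* was most like *Atp2b1* (0.91), a calcium pump of the plasma membrane, and *Arel1* (0.90), and *Prkar2b* most like *Gng7* (0.88), a G protein gamma subunit abundant in striatal neurons, and *Strip2* (0.88). *Pde4b* was most like *Rgs8* (0.89) and *Syt2* (0.88), *Pde4a* most like *Elavl3* (0.80) and *Zmiz1* (0.78), and *Pde4d* most like 1700109K24Rik (0.81) and *Faxc* (0.79). *Prkaca* was most like *Cbarp* and *Got2* (0.83 each), *Prkacb* most like *Tmx4* and *Ptpdc1* (0.79 each), and *Creb1* most like *Rab8b* (0.81) and *Dnal1* (0.79). The nearest to *Crem* were Gm41442 (0.67) and *Rrm2* (0.60), the lowest values of any of the 10.

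The rest of the pathway gave no gene called by edgeR either. Of 79 further genes in 9 lists, 73 were tested and edgeR called 0 in any comparison. DESeq2 with a batch term and limma-voom also called 0, and ComBat-seq followed by DESeq2 called 1, *Btg2* in Acute against Water (log2 fold change 0.43, adjusted p = 0.0393). At an unadjusted edgeR p under 0.05, 6 were higher and 5 lower in Acute against Water, 6 higher and 5 lower in Chronic against Water, and 1 higher and 2 lower in Chronic against Acute. Over all genes the shares were 5.07% and 4.45% in Acute against Water, 4.81% and 5.65% in Chronic against Water, and 1.95% and 2.5% in Chronic against Acute, so no count over the 73 genes is read as a result.

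Upstream of PKA, the G protein subunits had 5 of 6 genes tested, and *Gnas*, the stimulatory alpha subunit, had a log2 fold change of 0.08 in both comparisons with Water (unadjusted p = 0.0414 in Acute mice and 0.0460 in Chronic mice). *Gnai2*, an inhibitory alpha subunit, stood at 0.09 (SE 0.033) in Chronic against Water (unadjusted p = 0.00798, adjusted p = 0.290). Of 9 adenylyl cyclases, *Adcy2* had the smallest p in both, at 0.10 (unadjusted p = 0.0329) in Acute mice and 0.09 (unadjusted p = 0.0493) in Chronic mice. Of the 13 other cAMP phosphodiesterases, 0 had an unadjusted p under 0.05 in Acute against Water, where *Pde7a* had the smallest p (-0.07, unadjusted p = 0.155). In Chronic against Water 1 was lower at that threshold (all genes, 5.65%). That gene was *Pde10a*, which is also a striatal marker, at -0.52 (SE 0.219, unadjusted p = 0.0236), from 232 ± 101 CPM (SD, n = 10) in Water mice to 161 ± 36.1 (SD, n = 9) in Chronic mice. Both EPAC exchange factors, the sensors of cAMP other than PKA, had no unadjusted p under 0.05, and *Rapgef3* stood at 0.04 in Acute and 0.05 in Chronic against Water.

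At the level of PKA, *Pkig*, which encodes an inhibitor of the catalytic subunits, had a log2 fold change of 0.15 (SE 0.055, unadjusted p = 0.0105, adjusted p = 0.452) in Acute against Water and 0.18 (SE 0.056, unadjusted p = 0.00340, adjusted p = 0.241) in Chronic against Water. Its mean went from 37.0 ± 3.53 CPM (SD, n = 10) in Water mice to 41.1 ± 3.50 (SD, n = 9) and 41.8 ± 2.76 (SD, n = 9). Of the 6 other PKA subunits and inhibitors, *Pkig* and *Prkar1b* had an unadjusted p under 0.05 in each comparison with Water, both higher, beside 5.07% and 4.81% of all genes. *Akap10* had the smallest p of the other anchoring proteins in Acute against Water, at -0.11 (SE 0.045, unadjusted p = 0.0192). Of the 8 tested, *Akap6*, *Akap9* and *Akap11* were lower at an unadjusted p under 0.05 in Chronic against Water, beside 5.65% of all genes, and with so few genes nothing is read from that count. *Akap11*, which anchors type II PKA, stood at -0.10 (SE 0.034, unadjusted p = 0.00715, adjusted p = 0.279).

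Downstream, 1 of the 6 CREB family members and coactivators had an unadjusted p under 0.05 in each comparison with Water, the histone acetyltransferase *Ep300*. It stood at -0.11 (unadjusted p = 0.0220) in Acute mice and -0.09 (unadjusted p = 0.0437) in Chronic mice. Of all genes, 4.45% were lower in Acute and 5.65% in Chronic against Water at that threshold. Of 4 PKA substrates, 0 had an unadjusted p under 0.05 in either comparison with Water, and the smallest p were those of *Ppp1r1a* in Acute mice (-0.03) and *Ppp1r1b*, the striatal phosphatase inhibitor DARPP-32, in Chronic mice (-0.30, SE 0.196, unadjusted p = 0.133). Of 20 CREB target genes, 2 were higher and 3 lower at an unadjusted p under 0.05 in Acute against Water (all genes, 5.07% and 4.45%). In Chronic against Water 1 was higher and 0 lower (all genes, 4.81% and 5.65%). The log2 fold changes of the 20 genes ran from -0.53 to 0.42 in Acute against Water. *Btg2*, an immediate early gene, had the smallest p in Acute against Water, at 0.42 (SE 0.105, unadjusted p = 0.000381, adjusted p = 0.239), from 17.7 ± 4.29 CPM (SD, n = 10) to 23.8 ± 4.49 (SD, n = 9). *Vgf*, which encodes a secreted neuropeptide precursor, had the smallest p in Chronic against Water, at 0.12 (SE 0.047, unadjusted p = 0.0140, adjusted p = 0.341).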

How the data were processed

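RNA-seq of amygdala punches from 28 mice was analysed. The authors quantified reads with Salmon (version 0.14.1, after FastQC 0.11.8, per the submitters' processing notes), summarized them by gene with tximport and GENCODE M21 (GRCm38), and deposited whole-number counts as 1 table per batch, without batch adjustment. Groups and batches came from the sample labels. Tables were joined by gene identifier, and 0 columns of mice were left out.

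R 4.3.3 was used with edgeR 4.0.16 (quasi-likelihood test, TMM, batch as a covariate, all 3 groups, a mean of at least 10 counts), DESeq2 1.42.0, limma 3.58.1 and sva 3.50.0. p-values were adjusted by Benjamini-Hochberg over all genes tested, with a threshold of 0.05. Levels are CPM, or log2 CPM with a prior count of 2. Single genes were also tested by exact 2-sided permutation of mice within batches. Differences between batches were tested as interaction terms in edgeR. p-values and intervals cover the spread between mice of these batches. Alternatives were DESeq2, ComBat-seq, limma-voom, RLE size factors, other filters, single batches, the 2 groups compared alone, a replicate block, GC content and length offsets, and leaving out each mouse. The fits were tested on simulated data. No pair of mice of a group was a duplicated library: in 55 pairs the chi-square per gene was 3.90 or more.

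The 10 genes, the pathway lists and the marker lists were chosen with earlier results of these data known, and *Akap12* was taken by batch because its pattern had been seen. All 10 genes are named. Of each pathway list the rule names the gene with the smallest p in each comparison with Water, and for likeness 5 genes for *Akap12* and 2 for each other gene; *Prkar1b*, *Akap6* and *Akap9* were named after their values were seen. One marker of the striatal list first planned is not reported here and was left out of its score. The genes *Gnal*, *Akap8* and *Akap8l* were not analysed here, and *Akap3*, *Akap4* and *Akap14* were under the count filter.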

Additional observations from a re-analysis of the deposited data

Results flagged for a closer look

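*Akap12* is listed because its fold change differed between the batches by a test of that difference. The gene was taken by batch with its pattern already seen, so the test restates the observation that chose it. *Akap12* in Chronic against Water had a log2 fold change of 0.32 (SE 0.079) in the first batch and -0.22 (SE 0.055) in the second, a difference of -0.55 (SE 0.092, edgeR interaction test, adjusted p = 0.0465). The call was lost in 22 of 28 fits that each left out 1 mouse and with RLE size factors (adjusted p = 0.0503). All 3 Chronic mice of the first batch lay above all 4 Water mice, and 6 of 6 Chronic mice of the second batch lay below the Water mean of 26.4 CPM. By Dixon's test no mouse stood apart in the 30 groups of 9 or 10 mice with the batches pooled. Within a batch, 4 mice did in 50 groups of 4 to 6 mice, none of them for *Akap12*, and chance alone marks about 1 group in 20. On the batch-centred log2 CPM scale these were *Pde4b* in the Acute mouse 4 (0.15, the nearest of its group at -0.025), *Creb1* in the Acute mouse 34 (-0.091, nearest -0.019), *Crem* in the Water mouse 43 (0.26, nearest -0.0011) and *Akap5* in the Water mouse 5 (-0.22, nearest 0.079). The 3 Chronic mice of the first batch are too few for that test.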

How the results depend on the processing

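None of the 10 genes was called between groups under any alternative, including every fit without 1 mouse. Unadjusted p under 0.05 was less stable. The second batch alone gave it to 2 genes in Acute against Water, the first batch alone to 2 in Chronic against Water (the second to 5), GC content and length offsets to 0 and the offsets with the replicate block to 1, and each batch alone and the offsets gave it to 1 in Chronic against Acute. Leaving out 1 mouse moved these counts over 1 to 2 in Acute against Water (2 without Water 41, Water 4 or Acute 3), 2 to 4 in Chronic against Water (2 without Water 4 or Chronic 1) and 1 to 3 in Chronic against Acute (1 without Acute 4 or Chronic 2). The cause was not tested.

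The *Akap12* batch difference in Chronic against Water was -0.54 with RLE size factors and -0.56 without the count filter, where 0 genes were called; DESeq2, limma-voom, a mean of at least 100 counts and the offsets (2 of the 10 genes at an unadjusted p under 0.05) kept the call, and DESeq2 called 4 of all genes. Of these alternatives RLE was planned and the others were chosen after seeing the data. Without 1 mouse it ran from -0.60 to -0.51, with 0 or 1 gene called and 1 or 2 at an unadjusted p under 0.05 (also 1 or 2 in Acute against Water, where it ran from -0.38 to -0.29); the call was kept without Acute 33, Acute 36, Chronic 39, Water 42, Acute 4 or Water 3. Within batches, such fits gave Chronic against Water 0.29 to 0.38 in the first, where leaving out a Chronic or Water mouse of that batch makes the smallest possible exact permutation p 0.0667 or 0.1, and -0.25 to -0.19 in the second, and Acute against Water 0.14 to 0.22 and -0.19 to -0.13 (exact permutation p from 0.0238 to 0.0905 in the second).

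Small values changed sign. In Acute against Water these were, in the first batch alone, *Pde4a* (-0.088), *Akap5* (0.022) and *Akap12* (0.18); in the second alone, *Pde4b* (-0.036) and *Prkar2b* (-0.017); with limma-voom, *Pde4b* (-0.0066); and *Creb1* with the offsets (0.015) and with offsets and block (0.020). In Chronic against Water they were *Pde4a* (-0.020), *Pde4d* (0.018) and *Akap12* (0.32) in the first batch and *Pde4d* with the offsets (0.0055) and with offsets and block (0.0026). In Chronic against Acute they were *Pde4d* (-0.011), *Prkaca* (0.0057) and *Akap12* (-0.065) in the second batch, and *Akap12* with ComBat-seq (-0.0036), the block (-0.0064), the offsets (-0.0084) and both (-0.018). Without 1 mouse, sign changed for *Pde4a* (-0.0058 to 0.029), *Pde4b* (-0.0040 to 0.046) and *Akap12* (-0.056 to 0.0047) in Acute against Water, *Pde4d* (-0.054 to 0.018) and *Akap12* (-0.056 to 0.0085) in Chronic against Water, and *Prkaca* (-0.019 to 0.016) and *Akap12* (-0.034 to 0.024) in Chronic against Acute.

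Over all genes, Acute against Water had 0 called with edgeR, 9 with DESeq2, 30 with ComBat-seq then DESeq2, 2 with limma-voom and 1 without the filter; Chronic against Water had 3, 38, 88, 2 and 4, and 1 with the offsets, with or without the block, and 0 in the first batch alone. The replicate block of second-batch numbers left 0 and 3 called and the 10 genes' counts at 1, 4 and 2. The numbers mark no shared litter or day in the labels, and 4 of 16 same-numbered pairs had r above 0.1 (median -0.00798), with 1 of 17 mice correlating best with its own number.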
